A study of Mus musculus with 8 samples.

Results

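The histone genes are the genes for the proteins around which DNA is wound. They were taken as every entry of the deposited expression tables whose symbol opens with Hist1h, Hist2h, Hist3h, Hist4h, H2af or H3f3. Earlier results of these data were known when they were chosen, but this rule reads no expression value. This gave 83 of the 23699 entries and 78 symbols, because Hist1h4n, Hist1h2ao, Hist1h2ap, Hist2h2aa1 and Hist2h2aa2 are each listed at more than 1 locus. Of these, 73 belong to the replication-dependent histone clusters, called cluster genes from here on, and 10 are variant genes. Cufflinks, the program that estimated the values, gave 78 of the 83 the status OK and 5 the status LOWDATA, its mark for too few fragments: both Hist1h2ap entries, both Hist2h2aa2 entries and 1 of the Hist1h4n entries.

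RNA was sequenced from 3T3-L1, a mouse fibroblast line that can turn into fat cells. The 8 libraries fall into 4 with control siRNA and 4 with Fto siRNA. Fto encodes a dioxygenase that removes methyl groups from nucleic acids. All cells grew in DMEM with newborn calf serum and were transfected for 24 hours, before confluence, with a lipid reagent and 40 nM of siRNA. The Fto siRNA was a mix of 3 Stealth duplexes against that gene, and the control a mix of 3 nontargeted duplexes. All were collected as preadipocytes 2 days past confluence, with no inducer of differentiation named in the labels. The comparison asks how histone transcripts differ when Fto mRNA is lowered in such cells. Nothing in the labels says that the replicates were cultured separately. The p-values therefore reflect the spread among these 8 libraries alone, and that spread may be technical.

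Cluster histone genes supply the bulk of new histones while DNA is copied in S phase. Most have no intron, and their mRNAs typically end just after a short hairpin, the stem-loop, which the protein SLBP binds in place of a poly(A) tail. Variant histones such as H2A.Z and H3.3 come from genes outside these clusters, are made throughout the cell cycle and have polyadenylated mRNAs. H2A.X is an exception, since its gene can yield both a stem-loop form and a polyadenylated form. The labels do not say whether RNA was selected by its poly(A) tail, and that step decides which of these forms a library holds.

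The stem-loop sets most cluster mRNAs apart from the variant ones, so it is shown first, for genes that the results turn on and in which it was found. It was searched in the first 100 bases after the stop codon of GENCODE M21 transcripts (GRCm38), as 6 paired bases opening with GG and closing with CC around a loop of 4 bases opening with TT. The windows below run over 30 bases of the 3′ untranslated region, 5′ to 3′ on the transcript, with the stem-loop in capitals.
Hist1h4i: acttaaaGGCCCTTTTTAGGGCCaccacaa
Hist1h4n: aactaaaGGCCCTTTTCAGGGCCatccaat
Hist1h2bh: acccaaaGGCTCTTTTCAGAGCCactcaag
Hist1h2be: aaccaaaGGCTCTTTTCAGAGCCacccaac
Hist1h1c: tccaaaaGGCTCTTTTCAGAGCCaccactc
Hist2h3c1: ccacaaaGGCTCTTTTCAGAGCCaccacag
Hist3h2a: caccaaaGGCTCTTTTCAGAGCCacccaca
H2afx: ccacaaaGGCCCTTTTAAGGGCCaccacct

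The stem-loop of Hist1h4i lies at chr13:22040966-22040981 on the minus strand, that of Hist1h1c at chr13:23739512-23739527 on the plus strand, and that of H2afx at chr9:44335240-44335255 on the plus strand. Among genes with at least 50 annotated bases of 3′ untranslated region, 44 of 50 cluster genes held a stem-loop. It was found in 1 of 8 variants, H2afx, and in 13 of the 20763 other genes (0.0626%). For 11 of the cluster entries tested below, no stem-loop was found in the annotated 3′ untranslated region. Of these 3 were higher with Fto siRNA past the threshold, against 6.97% of all tested genes: Hist1h2bc, Hist1h4k and Hist1h4a. Whether their annotation was long enough to hold one was not tested. The form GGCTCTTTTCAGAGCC was shared by 26 genes, among them genes of H1, H2A, H2B and H3. All 7 genes with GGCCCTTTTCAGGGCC encode H4, and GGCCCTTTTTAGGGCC stood in Hist1h4i and Hist2h4. H2afx alone had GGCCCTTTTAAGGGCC.

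The annotated transcripts differ in how far they run past the stem-loop. For Hist1h4n the annotation ends 31 bases after it, whereas for Hist1h4i it runs on for 330 bases, for Hist1h1c for 840, for Hist2h3c1 for 1167 and for Hist3h2a for 1643. Among the variants, H2afx runs on for 822 bases. These are annotated lengths, and which end the sequenced molecules had was not tested.

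Promoters are shown for Hist1h4i, Hist1h4n and Hist1h1c, 3 genes that were higher with Fto siRNA. The 150 bases before each start come from RefSeq (GRCm38.p6), 5′ to 3′ on the gene's strand. Capitals mark the words searched: TATAAA, the core of the TATA box; CCAAT, the box bound by the factor NF-Y; ATTTGCAT, the octamer bound by POU factors; and GGTCCGC, which was chosen after the sequences were seen.
Hist1h4i: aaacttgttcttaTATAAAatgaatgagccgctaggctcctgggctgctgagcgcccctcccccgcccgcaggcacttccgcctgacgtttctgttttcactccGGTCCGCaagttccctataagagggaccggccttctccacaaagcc
Hist1h4n: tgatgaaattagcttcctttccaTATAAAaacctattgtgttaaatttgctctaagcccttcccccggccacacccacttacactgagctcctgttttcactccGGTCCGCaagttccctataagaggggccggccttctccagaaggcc
Hist1h1c: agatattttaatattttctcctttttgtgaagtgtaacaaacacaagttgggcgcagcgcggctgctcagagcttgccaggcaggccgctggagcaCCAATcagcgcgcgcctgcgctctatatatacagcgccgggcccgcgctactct

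These stretches lie at chr13:22041363-22041512 and chr13:21832198-21832347 on the minus strand and at chr13:23738657-23738806 on the plus strand. The first and the second share the run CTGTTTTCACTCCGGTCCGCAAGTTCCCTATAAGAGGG, 38 bases that open 59 bases before each start. The same run stands before Hist1h4m, which was lower in the mean with Fto siRNA and not past the threshold. The run is thus not particular to genes that were higher. Of the 78 symbols, 76 matched 1 gene of the RefSeq table and 68 had a promoter of 300 bases, 250 before the start and 50 after. On both strands of those, with words counted separately and overlaps kept, GGTCCGC was found in 9 of 12 H4 promoters (75%) and in 3.16% of all 32851 promoters of the table. CCAAT was found in 53 of 62 cluster promoters (85.5%) and in 6 of 7 variant promoters (85.7%), against 37.4% of all promoters. The cluster promoters without it were all of H4, where 3 of 12 held it. TATAAA was found in 35 of 62 cluster promoters (56.5%), in 1 of 7 variant promoters and in 13.6% of all. ATTTGCAT was found in 7 of 17 H2A and 7 of 17 H2B promoters (41.2% each), in no cluster promoter of H1, H3 or H4, in 1 of 7 variant promoters (that of H3f3b) and in 1.74% of all. A match shows that the letters are present and not that a factor binds there.

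Values are FPKM, fragments scaled by transcript length and library size, which puts genes on a common scale. Levels compare only roughly where entries share reads. Levels of cluster genes against variants also depend on the RNA selection, which is not given. The tested value was log2(FPKM + 0.5), for entries with a mean of at least 1 FPKM over the 8 libraries. A log2 fold change is on that scale, as Fto siRNA minus control, and is smaller than the true ratio for low genes. The limma test was fitted over all 11398 entries that passed this filter, with Benjamini-Hochberg adjustment and a threshold of 0.05. Here rose and fell are used of entries past that threshold. Of the 83 histone entries 45 were tested, 37 of cluster genes and 8 of variants, and 38 were below the filter. The width of each deposited interval implies a number of fragments, which is given beside low values because it limits their precision. Where entries share reads, the width need not follow the number of fragments, and the implied number then describes precision only.

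Each library implied 18.9 to 24.4 M fragments. Control replicate 3 stood furthest from its group, so sums and counts are also given without it. Fto itself was 54.6, 55.4, 56.2 and 55.2 FPKM in the controls and 13.8, 10.7, 12.3 and 11.6 with Fto siRNA, a fall of 78.1% (log2 fold change -2.15, limma adjusted p = 7.3e-08, exact two-sided permutation p = 0.0286, the smallest that 4 against 4 allow).

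Markers of the cells themselves moved in both directions. Of 10 tested markers of preadipocytes, 5 rose, 2 fell and 3 did not pass, while 6.97% of all tested genes rose and 12.3% fell. Ly6a, a surface protein of fat progenitors, was 147 ± 5.04 FPKM in controls and 227 ± 15.0 with Fto siRNA (SD over 4 libraries) and rose by 0.63 on the log2 scale (limma adjusted p = 4.3e-05). Thy1, another surface protein, rose by 0.29 (limma adjusted p = 0.0022). The collagen genes Col1a1, Col1a2 and Col3a1 rose by 0.24, 0.22 and 0.22 (limma adjusted p = 0.0473, 0.0222 and 0.0378), with overlap for Col1a1 and Col3a1. These calls were lost with quantile normalization (0.186, 0.209 and 0.393), with no filter (0.158, 0.213 and 0.189), and when control 2 or 4 or Fto siRNA library 1, 3 or 4 was left out (0.0539 to 0.128). That of Col1a1 was also lost when control 3 was left out (0.0555) and without the variance trend (0.0559). Pdgfra, a receptor of these cells, fell from 240 ± 9.97 to 208 ± 4.63 FPKM (-0.21, limma adjusted p = 0.0045), and Pdgfrb fell by 0.14 (0.0206), which was lost with quantile normalization (0.0711), with the replicate block (0.0556) and when control 2 or 4 or Fto siRNA library 3 or 4 was left out (0.0553 to 0.0625). Fn1, Dlk1 and Pparg did not pass, and Dlk1 was 918 ± 78.6 and 939 ± 51.2 FPKM.

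Of 7 markers of mature adipocytes 3 were tested and none passed. Their median log2 fold change was -0.44, and Cidec and Adipoq varied widely among controls. Fabp4 was 57.4 ± 8.42 and 52.9 ± 6.36 FPKM, Adipoq 4.59 ± 3.08 and 2.32 ± 1.07, and Cidec 1.46 ± 1.26 and 0.755 ± 0.152 (limma adjusted p = 0.511, 0.163 and 0.426). Markers of other cells were low. The 4 of muscle summed to 1.34 to 2.22 FPKM in controls and 1.46 to 2.15 with Fto siRNA, with Des at 1.92 ± 0.406 and 1.81 ± 0.313 and Myod1 and Ckm listed at 0. The 5 of macrophages summed to 1.43 to 1.89 and 1.84 to 2.51, with Cd68 at 0.974 ± 0.289 and 1.20 ± 0.268 and Emr1 listed at 0. The 4 of endothelium summed to at most 0.571, and the 4 of epithelium to at most 0.0970, with Epcam and Krt18 listed at 0. The part of these cells in the histone results was not tested, and in bulk RNA fewer cells of a kind and less RNA per cell cannot be told apart.

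Most cluster histone entries had a higher FPKM with Fto siRNA, and most variants a lower one. Of the 37 tested cluster entries, 12 rose (32.4%), 1 fell (2.70%) and 24 did not pass. Over all tested genes 6.97% rose and 12.3% fell. The groups did not overlap, with Fto siRNA higher, for 13 of the 37, against 9.08% of all genes, and with Fto siRNA lower for 1, against 15.1%. The median log2 fold change was 0.30 over the cluster entries and -0.02 over all genes. Of the 37 cluster entries 31 were above 0, against 44.7% of all genes. The variants gave 0 rises, 3 falls (37.5%) and 5 that did not pass, with 2 lower without overlap and a median of -0.14. Before adjustment 4 of the 8 variants had limma p under 0.05, all of them lower, against 22 of the 37 cluster entries and 32.4% of all genes. Without Fto siRNA replicate 4 the count of cluster entries that rose was 7 of 36, and without control replicate 3 it was 14 of 35. It was 14 of 36 with median-ratio scaling and 16 of 37 with quantile normalization. Rises over all genes numbered 794 as tested, 1090 with median-ratio scaling and 1086 with quantile normalization. More rises in those settings were therefore not particular to histone genes. These counts describe lists that share libraries and reads, and no test was made of a list.

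**Figure D1:**
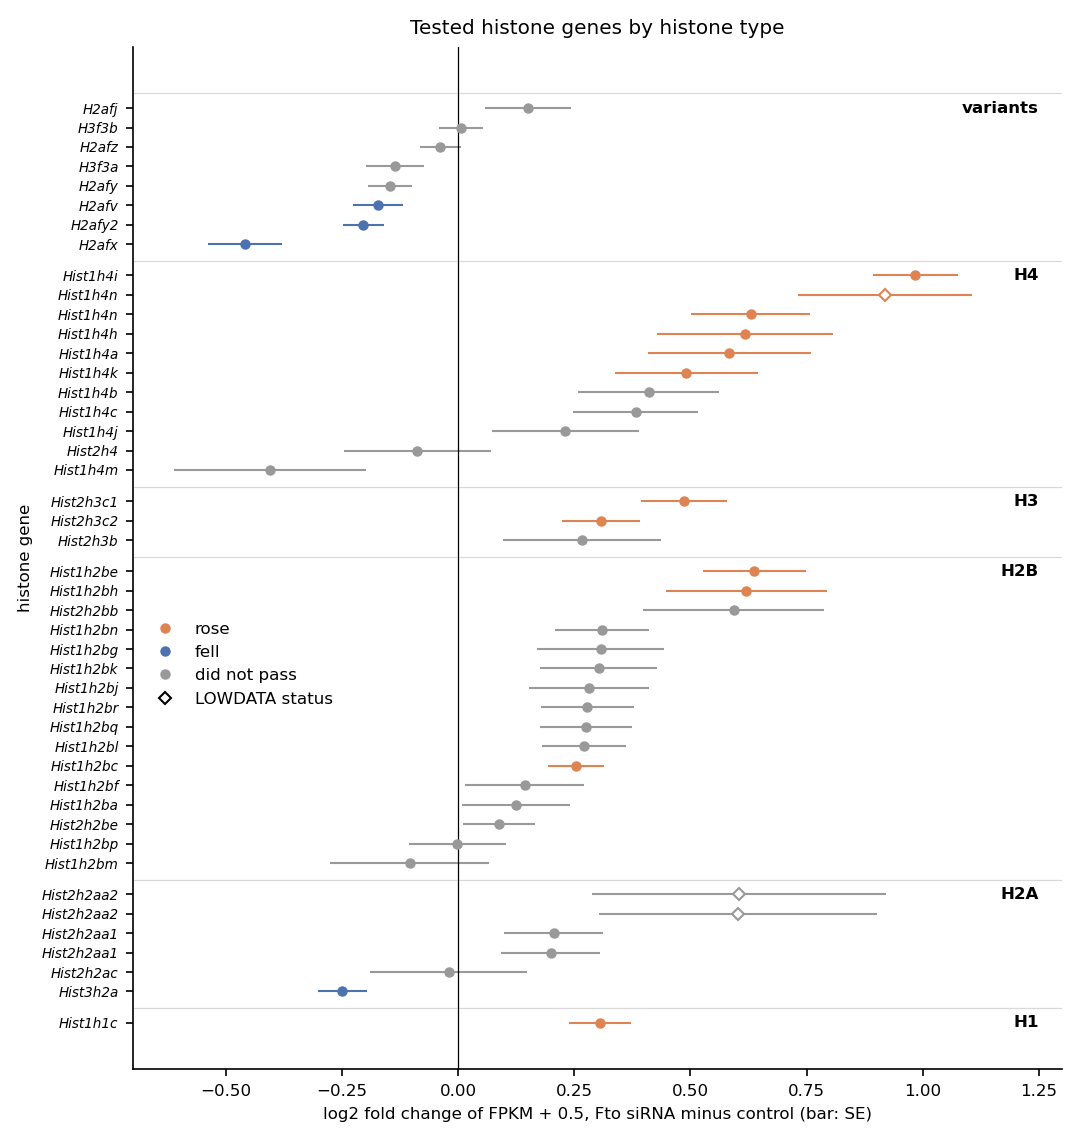
Log2 fold change of FPKM + 0.5 (x axis, Fto siRNA minus control, n = 4 libraries each; bars are limma's SE) for the 45 tested histone entries (y axis), by histone type. Orange marks entries that rose and blue those that fell in limma, gray those that did not pass, and open diamonds the status LOWDATA; most cluster entries lie right of 0, and Hist1h4i lies furthest right at 0.98.

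Histone H4, with H3 the core of the nucleosome, gave the highest median of the cluster types, 0.49 over 11 tested entries. Of these 6 entries of 5 genes rose and 5 did not pass, while 6.97% of all tested genes rose. Over the 10 with status OK, 5 rose and the median was 0.45. Only Hist1h4i and Hist1h4h had a median of at least 10 implied fragments, so the H4 median rests mostly on imprecise values. Hist1h4i (chr13:22132685-22133221, mm9) was 4.83, 6.31, 6.14 and 4.93 FPKM in the controls and 11.2, 11.3, 10.5 and 12.8 with Fto siRNA. Every Fto siRNA library lay above every control, and the mean went from 5.55 ± 0.779 to 11.4 ± 0.977 (SD, n = 4), or 2.06-fold. The log2 fold change was 0.98 (SE 0.09, limma adjusted p = 1.2e-04), resting on 31.7 to 88.7 implied fragments per library. Its stem-loop is the form it shares with Hist2h4, and its annotated transcript runs on beyond it.

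Hist1h4n is listed at 2 loci, and its entry with status OK (chr13:21923716-21924027, mm9) was 2.28, 2.02, 2.91 and 2.57 FPKM in controls and 4.54, 4.17, 3.04 and 4.54 with Fto siRNA. The groups did not overlap, though Fto siRNA replicate 3 lay close to the highest control, and the entry rose by 0.63 (SE 0.13, limma adjusted p = 0.0079). It rests on 4.12 to 9.58 implied fragments. The other Hist1h4n entry, with status LOWDATA, lies within the locus of Hist1h4m and implied 0.235 to 1.32 fragments. It also rose, from 1.59 ± 0.509 to 3.41 ± 0.660 FPKM (log2 fold change 0.92, limma adjusted p = 0.0079). Hist1h4m on the same stretch went the other way, from 1.22 ± 0.405 to 0.791 ± 0.270 FPKM, and did not pass (log2 fold change -0.40, limma adjusted p = 0.205). How the program divided the reads of these overlapping entries was not tested.

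Hist1h4h, Hist1h4k and Hist1h4a passed the threshold by a small margin. Hist1h4h was 1.70, 2.81, 2.03 and 3.21 FPKM in controls and 4.27, 5.11, 2.76 and 3.86 with Fto siRNA, so that 1 Fto siRNA library lay among the controls (log2 fold change 0.62, SE 0.19, limma adjusted p = 0.0456). Hist1h4k rose from 2.03 ± 0.627 to 3.00 ± 0.327 FPKM with overlap (0.49, limma adjusted p = 0.0496), and Hist1h4a from 1.39 ± 0.428 to 2.31 ± 0.502 without overlap (0.58, limma adjusted p = 0.0417). Each lost its call when single libraries were left out. Hist1h4h lost it without any of the control replicates 1, 2 and 3 or the Fto siRNA replicates 1, 2 and 4 (limma adjusted p 0.0584 to 0.114). Hist1h4k lost it without any library but control replicate 2 (0.0548 to 0.117). The replicate block also ended the call of Hist1h4k (0.0896), and leaving off the variance trend ended those of Hist1h4k (0.0586) and Hist1h4h (0.0607). For Hist1h4a the libraries were controls 1 and 3 and Fto siRNA 1, 2 and 4 (0.0549 to 0.107). Hist1h4k rests on 2.47 to 6.53 implied fragments and Hist1h4a on 1.29 to 5.18.

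H4 genes encode the same protein from near-identical sequences, and their values are not independent. In the library of control replicate 3, Hist1h4j, Hist1h4k and Hist1h4c were each given exactly 1.48 FPKM, and Hist1h4a and Hist1h4b each 1.07. In control replicate 1, Hist1h4a and Hist1h4c were each given 0.963, and in Fto siRNA replicate 1, Hist1h4b and Hist1h4c were each given 1.83. Hist1h4b (1.23 ± 0.140 to 1.84 ± 0.546 FPKM), Hist1h4c (1.35 ± 0.376 to 1.88 ± 0.0852) and Hist1h4j (1.74 ± 0.219 to 2.17 ± 0.625) did not pass. Hist2h4, on chromosome 3, did not pass either, at 1.22 ± 0.244 and 1.13 ± 0.305 FPKM. Summed over all 14 H4 entries, FPKM was 19.8, 24.2, 22.5 and 25.7 in controls and 38.7, 37.4, 31.6 and 42.5 with Fto siRNA, 63.0% higher in the mean and without overlap.

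**Figure D2:**
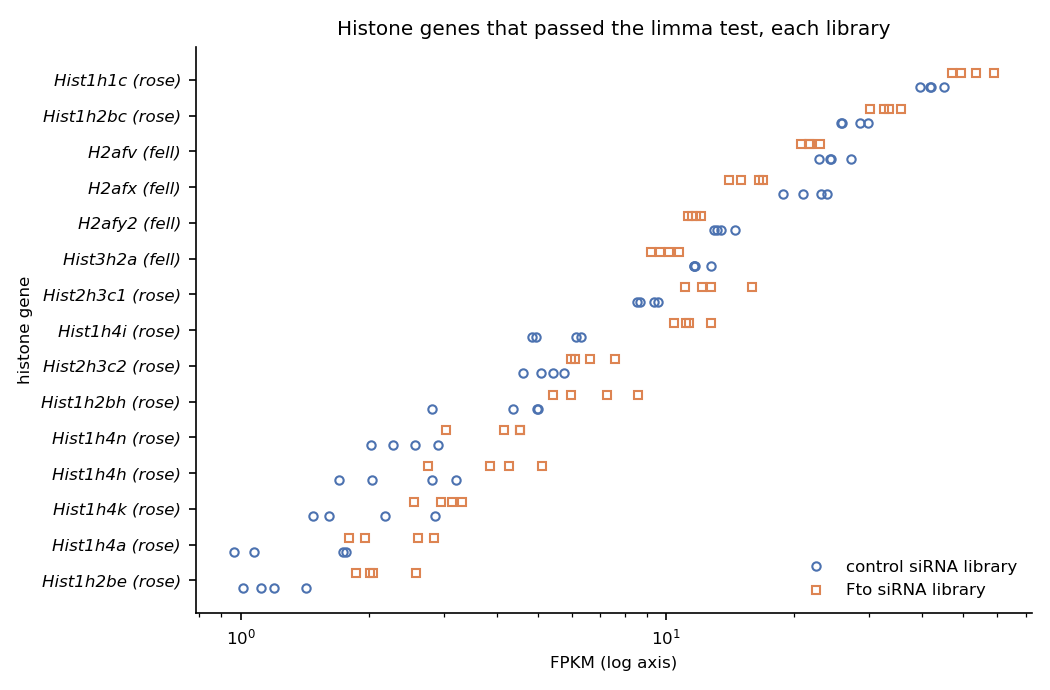
FPKM in each library (x axis, log scale) for the 15 histone entries with status OK that passed the limma test (y axis, ordered by control mean), with blue circles for the 4 control siRNA libraries and orange squares for the 4 Fto siRNA libraries. The Hist1h4i squares lie between 10.5 and 12.8 and its circles between 4.83 and 6.31, while for Hist1h4h, Hist1h4k and H2afv the groups overlap.

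Of the 3 tested H3 entries, all from the Hist2 cluster on chromosome 3, 2 rose, while 6.97% of all tested genes rose. Hist2h3c1 (chr3:96050608-96052432, mm9) was 9.36, 8.68, 9.60 and 8.53 FPKM in controls and 11.1, 12.7, 12.2 and 15.9 with Fto siRNA. All Fto siRNA libraries were higher, replicate 4 most (log2 fold change 0.49, SE 0.09, limma adjusted p = 0.0059; 313 to 554 implied fragments). Hist2h3c2 rose from 5.21 ± 0.485 to 6.57 ± 0.734 FPKM, without overlap (0.31, limma adjusted p = 0.0283). Leaving out any of controls 1, 2 and 4 and Fto siRNA libraries 3 and 4 ended that call (limma adjusted p 0.0508 to 0.0697). Hist2h3b went from 4.22 ± 0.995 to 5.16 ± 1.13 FPKM and did not pass. None of the 9 Hist1 H3 genes reached a mean of 1 FPKM over the 8 libraries. Hist1h3b and Hist1h3d were given the same value in control replicate 2 (0.110 FPKM) and in control replicate 3 (0.682).

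Histone H2B, which pairs with H2A, had 16 tested genes, of which 3 rose and 13 did not pass. The share that rose over all tested genes was 6.97%. Hist1h2bc (chr13:23776068-23784349, mm9), the highest H2B gene, was 26.0, 29.8, 28.6 and 25.8 FPKM in controls and 33.5, 32.5, 30.2 and 35.6 with Fto siRNA. The groups came close without meeting, and the log2 fold change was 0.25 (SE 0.06, limma adjusted p = 0.0157; 279 to 398 implied fragments). Hist1h2bh was 2.82, 4.36, 4.99 and 4.99 FPKM in controls and 7.28, 5.98, 5.43 and 8.59 with Fto siRNA, likewise without overlap (0.62, SE 0.17, limma adjusted p = 0.0314). Leaving out control 2, or Fto siRNA library 1 or 4, ended the call (limma adjusted p 0.0616 to 0.0805).

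Hist1h2be rose from 1.19 ± 0.174 to 2.13 ± 0.314 FPKM, without overlap (log2 fold change 0.64, SE 0.11, limma adjusted p = 0.0037). Its deposited locus spans 37455 bases and overlaps Hist1h1e, an H1 gene that was also higher in every Fto siRNA library (0.637 ± 0.0401 and 0.854 ± 0.181 FPKM) but lay below the filter. Both genes lie on the minus strand in RefSeq and GENCODE, so strand could not divide the reads of the stretch they share.

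Most other H2B genes lay in a narrow band of positive values. Hist1h2bg, Hist1h2bj, Hist1h2bk, Hist1h2bl, Hist1h2bn, Hist1h2bq and Hist1h2br had log2 fold changes of 0.27 to 0.31, and none passed (limma adjusted p 0.0585 to 0.160). Some passed in other settings: Hist1h2bl and Hist1h2bn with median-ratio scaling (0.0386 and 0.0444), quantile normalization (0.0397 and 0.0315) and without control replicate 3 (0.0050 and 0.0399), Hist1h2bn also without Fto siRNA replicate 3 (0.0203), Hist1h2bk without control replicate 3 (0.0414), and Hist1h2bq and Hist1h2br without the variance trend (0.0277 and 0.0237). Hist1h2bl also passed among entries with at least 10 implied fragments in each library (0.0486). Hist1h2bq and Hist1h2br, neighbours on chromosome 13 with nearly the same values, were higher in every Fto siRNA library, from 1.12 ± 0.135 to 1.46 ± 0.137 and from 1.07 ± 0.136 to 1.41 ± 0.114 FPKM. Hist2h2bb was 9.85, 7.46, 4.36 and 9.07 FPKM in controls and 12.3, 10.7, 10.5 and 12.1 with Fto siRNA. Its groups did not overlap, but the spread of the controls was wide, with replicate 3 lowest, and it did not pass (0.59, limma adjusted p = 0.0584). Without control replicate 3 it passed (0.36, limma adjusted p = 0.0214). Hist1h2bf, Hist1h2ba and Hist2h2be lay at 0.14, 0.12 and 0.09. Hist1h2bm (-0.10) was below 0, and Hist1h2bp was at -0.0018 as deposited and above 0 after median-ratio scaling or quantile normalization, and neither passed.

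Linker histone H1 binds DNA where it enters and leaves the nucleosome. Hist1h1c, the only 1 of 6 H1 genes above the filter (chr13:23830676-23832236, mm9), was the highest cluster gene. It was 39.6, 42.0, 45.1 and 41.7 FPKM in controls and 49.5, 53.6, 47.1 and 59.0 with Fto siRNA. Every Fto siRNA library exceeded every control, and it rose by 0.30 (SE 0.07, limma adjusted p = 0.0110) on 1113 to 1723 implied fragments. H1f0, the H1 variant gene of non-dividing cells, which the symbol rule leaves out, was 95.3 ± 3.44 FPKM in controls and 94.2 ± 4.22 with Fto siRNA and did not pass (log2 fold change -0.02, limma adjusted p = 0.801; the sign turned positive after median-ratio scaling). Cenpa, the histone H3 of centromeres, was 10.9 ± 0.393 and 9.93 ± 0.264 FPKM and did not pass (-0.13, limma adjusted p = 0.0584).

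Cluster H2A gave 0 rises among 6 tested entries of 4 genes, 1 fall and 5 that did not pass, and no test compared it with the other types. Before adjustment 1 of the 6 had a limma p under 0.05, the entry that fell, against 32.4% of all genes. Over all tested genes 6.97% rose and 12.3% fell. Hist3h2a (chr11:58768187-58770176, mm9) fell. It was 11.6, 11.6, 12.7 and 11.7 FPKM in controls and 10.2, 9.24, 9.69 and 10.7 with Fto siRNA, with all controls higher (log2 fold change -0.25, SE 0.05, limma adjusted p = 0.0094; 324 to 500.0 implied fragments). Its stem-loop has the same letters as that of Hist1h1c. Of the 3 Hist3 entries it was the only 1 above the filter. In the Hist1 cluster 10 of 25 tested entries rose and in Hist2 2 of 11, against 6.97% of all tested genes.

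The abundant H2A genes of the Hist2 cluster did not pass. Hist2h2aa1 is listed at a mirrored pair of loci with nearly the same values, 18.7 ± 2.60 to 21.6 ± 2.78 FPKM at the first (log2 fold change 0.21, limma adjusted p = 0.215) and 18.8 ± 2.58 to 21.6 ± 2.78 at the other (0.20, limma adjusted p = 0.227). Both Hist2h2aa2 entries lie inside these loci, have the status LOWDATA and imply at most 3.61 fragments. They went from 5.04 ± 2.54 to 7.27 ± 1.61 and from 5.08 ± 2.52 to 7.32 ± 1.26 FPKM. Hist2h2ac was 4.27, 3.14, 4.49 and 2.34 FPKM in controls and 3.19, 3.37, 2.96 and 4.21 with Fto siRNA (-0.02, limma adjusted p = 0.947; above 0 with quantile normalization).

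Of 6 tested variant H2A genes, 3 fell and 3 did not pass, while 12.3% of all tested genes fell. H2afx, which encodes the variant H2A.X that is phosphorylated at DNA breaks, changed most (chr9:44142798-44144156, mm9). It was 18.8, 20.9, 23.2 and 23.8 FPKM in controls and 16.9, 15.0, 14.1 and 16.5 with Fto siRNA. All controls were higher, and it fell by 0.46 on the log2 scale (SE 0.08, limma adjusted p = 0.0037; 302 to 629 implied fragments), or 28.0% in the mean. It is the variant in which the stem-loop was found, and its direction was opposite to that of the cluster genes that rose. H2afy2, for the macroH2A found on silent chromatin, was 12.9, 13.4, 14.5 and 13.1 FPKM in controls and 11.8, 11.5, 12.1 and 11.3 with Fto siRNA, and fell by 0.20 without overlap (SE 0.04, limma adjusted p = 0.0112). Its locus overlaps Aifm2 and Mir5108.

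H2afv and H2afz encode the forms of H2A.Z, a variant found at promoters. H2afv was 22.9, 24.3, 27.3 and 24.4 FPKM in controls and 20.8, 21.8, 21.7 and 23.1 with Fto siRNA, and fell by 0.17 with overlap (SE 0.05, limma adjusted p = 0.0472). The call held when control replicate 1 or Fto siRNA replicate 4 was left out and was lost without any of the other 6 (limma adjusted p 0.0678 to 0.117). It was also lost with median-ratio scaling (limma adjusted p = 0.0519), with the replicate number as a block (0.0512), without the variance trend (0.0654) and with no filter (0.0905). H2afz, the higher of the pair, was 70.2 ± 2.60 and 68.3 ± 3.58 FPKM and did not pass (-0.04, limma adjusted p = 0.585). H2afy, the other macroH2A gene, was 32.9 ± 1.58 and 29.7 ± 1.51 FPKM and missed the threshold (-0.15, limma adjusted p = 0.0537). H2afj was the variant with the most positive value, 21.9 ± 3.26 and 24.2 ± 1.48 FPKM (0.15, limma adjusted p = 0.294).

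H3.3, an H3 variant made throughout the cell cycle, comes from H3f3a and H3f3b, the histone genes with the highest FPKM here. H3f3a was 376, 376, 429 and 358 FPKM in controls and 320, 356, 350 and 374 with Fto siRNA. Control replicate 3 was highest and the groups overlapped (log2 fold change -0.14, limma adjusted p = 0.165). H3f3b was 332 ± 18.5 and 333 ± 13.7 FPKM (0.01, limma adjusted p = 0.945), and its sign changed when single libraries were left out. Together they made the H3 pool mostly H3.3: cluster genes gave 2.89 ± 0.0823% of all H3 FPKM in controls and 4.08 ± 0.401% with Fto siRNA. For H2A the cluster share was 27.5 ± 1.72% and 32.1 ± 1.07%. These shares describe FPKM, and a library selected for poly(A) tails holds fewer stem-loop mRNAs than the cell.

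**Figure D3:**
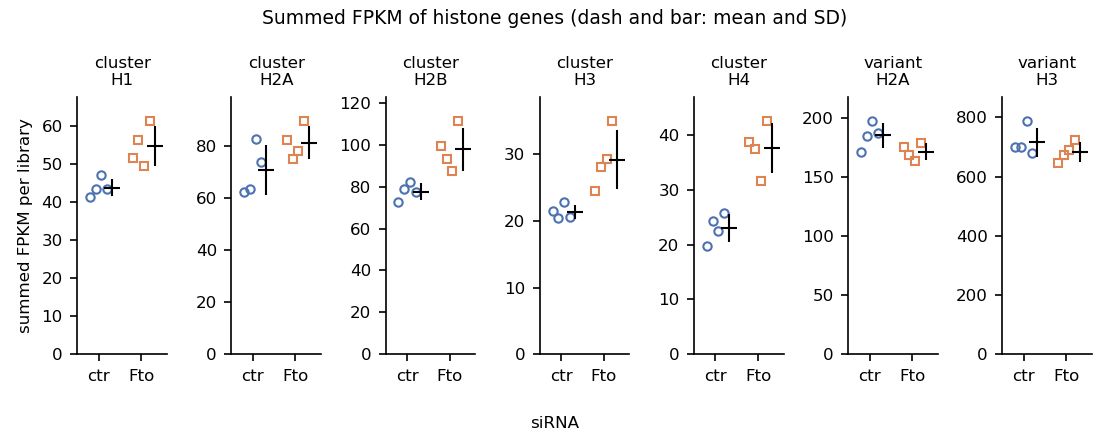
Summed FPKM per library (y axes, each from 0) of the cluster genes of each histone type and of the variant H2A and H3 genes, for the 4 control siRNA libraries (blue circles) and the 4 Fto siRNA libraries (orange squares), with the mean and SD in black. Cluster H4 shows the widest gap relative to its control mean, 23.0 against 37.5 FPKM, and variant H3 overlaps, at 716 and 683.

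The summed FPKM of all 73 cluster entries was 217, 230, 257 and 241 in controls and 297, 290, 276 and 340 with Fto siRNA. The lowest Fto siRNA library, replicate 3, lay above the highest control, replicate 3, and the mean was 27.1% higher (236 ± 16.7 and 300.5 ± 27.7). The ratio of means was 1.31 when control replicate 3 was left out and 1.22 when Fto siRNA replicate 4 was. By type, the mean was 24.8% higher for H1, 15.0% for H2A, 26.0% for H2B, 36.7% for H3 and 63.0% for H4, and H2A alone overlapped between groups. The variants summed to 902 ± 56.8 and 854 ± 34.3 FPKM, with overlap, and the ratio was 0.948, or 0.978 without control replicate 3. Cluster genes made up 20.8 ± 0.719% of all histone FPKM in controls and 26.0 ± 1.28% with Fto siRNA.

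The number of implied fragments behind a value differed widely between members. Over the 22 tested cluster entries with a median of at least 10 implied fragments, 8 rose and 1 fell, 20 had a positive log2 fold change, 16 had an unadjusted limma p under 0.05, and the median was 0.29. Over the 15 with fewer, 4 rose and 0 fell, 6 had an unadjusted limma p under 0.05, all higher, and the median was 0.38. Over all genes 32.4% had such a p and 44.7% had a positive log2 fold change, while 6.97% rose and 12.3% fell. Of the tested cluster entries, 19 had a deposited locus no longer than the coding sequence and 18 a longer one. The first gave 5 rises and a median of 0.31 and the second gave 7 rises, 1 fall and a median of 0.28.

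**Figure D4:**
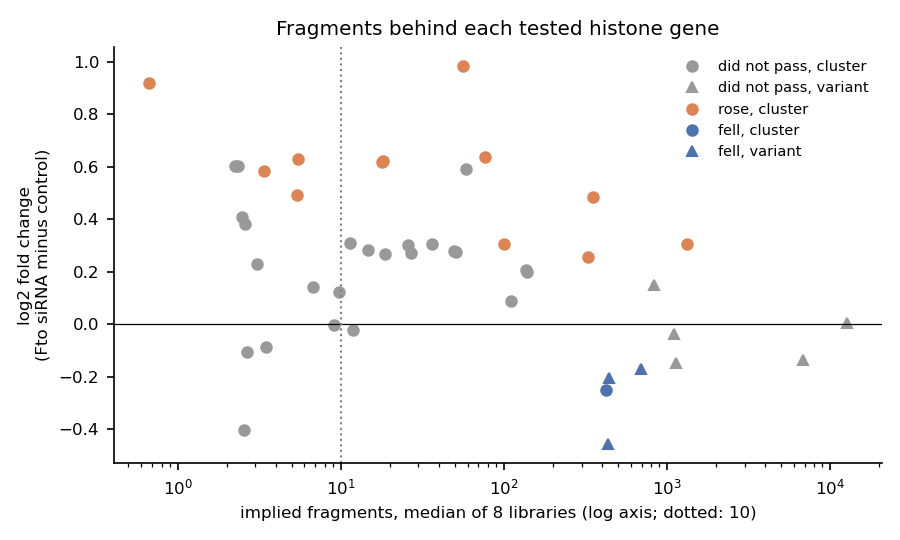
Log2 fold change of FPKM + 0.5 (y axis, Fto siRNA minus control) against the median number of implied fragments over the 8 libraries (x axis, log scale, dotted line at 10) for the 45 tested histone entries, with circles for cluster genes and triangles for variants. Rises in orange occur from under 1 implied fragment (Hist1h4n, LOWDATA) to a median of 1333 (Hist1h1c), and the falls in blue all lie above 300.

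The 38 entries below the filter were 36 of cluster genes and 2 of variants. The mean was higher with Fto siRNA for 30 and lower for 6, and Hist1h2aa and H2afb1 were listed at 0 in all libraries. No matching share over all entries was taken, for these counts or for the calls without a filter given below. The counts are therefore not read as a result about histone genes. The highest of them were Hist1h1d (0.736 ± 0.0485 and 1.11 ± 0.0703 FPKM), Hist1h2an (0.829 ± 0.115 and 0.993 ± 0.105), Hist1h2ah (0.836 ± 0.0854 and 0.965 ± 0.141) and Hist1h2ai (0.806 ± 0.401 and 0.961 ± 0.0656). Just inside the filter lay Hist1h2bm, Hist1h4m and Hist2h4 with means of 1.002, 1.01 and 1.17 FPKM, and just outside Hist1h1d, Hist1h2an and Hist1h2ah with 0.925, 0.911 and 0.900. With no filter 2 of the 38 passed, named here after their values were seen. They were Hist1h1d (log2 fold change 0.38, limma adjusted p = 0.0058) and Hist1h2ac (0.576 ± 0.121 and 1.15 ± 0.199 FPKM, 0.61, limma adjusted p = 0.0145), the neighbour of Hist1h2bc. Both were higher in every Fto siRNA library.

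The word ACCTTAA was searched in 3′ untranslated regions after earlier results of these data had singled it out, so it supports nothing here. The word GACCTTA was searched as well and was found in no histone gene, and no share over all genes was taken. Among the histone genes ACCTTAA was found in H2afx, 816 bases after the stop codon, and in Hist1h1d, 918 bases after it. The windows are printed because H2afx fell while Hist1h1d was higher in every Fto siRNA library; the word lies at chr9:44336010-44336016 and chr13:23556674-23556680 (GRCm38), both on the plus strand.
H2afx: acaagtttagaACCTTAAgtggggagattt
Hist1h1d: aacacaaaccaACCTTAActgtccttcagg

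Of 20 regulators of histone gene transcription and 3′ end formation, 19 were tested, 1 rose, 1 fell and 17 did not pass. Their median log2 fold change was -0.05. Over all tested genes, 6.97% rose and 12.3% fell. Ncbp1, for the larger subunit of the cap-binding complex, rose from 25.8 ± 0.759 to 28.0 ± 0.537 FPKM (0.12, limma adjusted p = 0.0382). Srrt, for the ARS2 protein that works with that complex, fell from 38.1 ± 0.597 to 35.0 ± 1.65 FPKM (-0.12, limma adjusted p = 0.0478; 0.073 with median-ratio scaling). Slbp, for the stem-loop binding protein, was 35.1 ± 1.88 and 33.5 ± 0.976 FPKM and did not pass (-0.06, limma adjusted p = 0.356). The lowest p among those that did not pass were those of Cpsf3, Ncbp2, Cpsf1 and Eri1, with log2 fold changes of -0.10, -0.09, -0.10 and -0.10 (limma adjusted p 0.0845 to 0.186). Npat, the coactivator of cluster genes, was 8.54 ± 0.358 and 8.02 ± 0.246 FPKM, and Hinfp, a factor of H4 promoters, 7.07 ± 0.551 and 7.12 ± 0.268.

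Of 28 histone chaperones and deposition factors tested, 1 rose, 2 fell and 25 did not pass. The shares over all tested genes were 6.97% that rose and 12.3% that fell. Nap1l4, a chaperone of H2A and H2B, rose from 50.2 ± 1.65 to 57.8 ± 1.62 FPKM (0.20, limma adjusted p = 0.0040). Anp32e, which takes H2A.Z off chromatin, fell from 25.9 ± 0.310 to 23.0 ± 0.375 (-0.17, limma adjusted p = 0.0047), and Daxx, which places H3.3, from 14.9 ± 0.325 to 13.5 ± 0.244 (-0.14, limma adjusted p = 0.0228). Each had all libraries of 1 group above the other. Ipo4, Dnajc9, Hira and Chaf1b came next, at -0.08, 0.10, 0.09 and -0.14, and did not pass (limma adjusted p 0.152 to 0.189).

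Of 35 tested genes of S phase, 3 rose, 1 fell and 31 did not pass, while 6.97% of all tested genes rose and 12.3% fell. The median log2 fold change was 0.04 over these S phase genes and -0.02 over all genes. Rrm2 and Rrm1, the subunits of ribonucleotide reductase, rose from 16.9 ± 0.849 to 20.6 ± 1.83 FPKM (0.28, limma adjusted p = 0.0117) and from 35.8 ± 0.511 to 38.4 ± 0.502 (0.10, limma adjusted p = 0.0391). Ccne1, for cyclin E1, rose from 7.29 ± 0.482 to 8.93 ± 0.900 (0.27, limma adjusted p = 0.0244). Tyms, for thymidylate synthase, fell from 6.62 ± 0.579 to 5.47 ± 0.526 (-0.26, limma adjusted p = 0.0430; 0.0605 with median-ratio scaling). Gins1, Fen1, Gins3 and Cdc45 came next, at 0.24, 0.14, 0.13 and 0.15, and did not pass (limma adjusted p 0.110 to 0.130). Their part in the histone values was not tested.

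RNAs that lack a poly(A) tail varied widely between libraries. Of 11 sought, 7 were listed and 2 passed the filter, Rmrp and Rpph1, the RNAs of RNase MRP and RNase P. Rmrp was 8.76 ± 4.70 FPKM in controls and 24.1 ± 33.4 with Fto siRNA and did not pass (log2 fold change 0.66, limma adjusted p = 0.559). Without Fto siRNA replicate 2 its log2 fold change was -0.17 and that of Rpph1 -0.24. Rpph1 was 3.30 ± 2.31 and 5.87 ± 7.30 and did not pass (limma adjusted p = 0.695). The 7 summed to 7.83 to 24.2 FPKM in controls and 7.57 to 91.9 with Fto siRNA, with overlap, and Rnu11, Rnu12 and Scarna2 were listed at 0. The part of RNA selection in the cluster values was not tested.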

How the data were processed

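RNA sequencing of 4 control siRNA and 4 Fto siRNA libraries was analysed from 1 gene table per library. Per the file headers, the deposited values are FPKM, each with a lower and upper bound and a status. The submitters' processing notes name TopHat2 2.0.11, Cufflinks 2.2.1 and the build mm9. RNA selection, strand and the annotation used were not given in the sources used here. Cufflinks divides reads among near-identical genes by a model, so paralogs share signal, and FPKM are not counts. The 2 compiled tables were not used.

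The members and lists were chosen with earlier results of these data known. Values were log2(FPKM + 0.5), filtered at a mean of 1 FPKM, fitted with limma 3.58.1 (R 4.3.3) with a variance trend, two-sided, over 11398 entries, with Benjamini-Hochberg adjustment and a threshold of 0.05. Named were Fto, every member past the filter, the 4 highest members below it and, from each list, called genes and up to 4 others by lowest p; Slbp, Npat, Hinfp, Hist1h1e and Hist1h2ac were added after their values were seen. Interval half-widths, taken as 2 standard errors, gave implied fragments and leave out the spread between libraries. For entries that share reads these need not follow counts. The 2 Hist1h4n entries, both of 312 bases, had mean FPKM of 2.50 and 3.26 but medians of 0.666 and 5.44 implied fragments. Of low values, 69.4 to 71.1% came out whole within 0.02, too few for a count test. Within groups, the median difference between a pair of libraries was 0.917 to 1.71 standard errors, and none was treated as a repeat. On 5 simulated sets of 11398 genes with 200 changed, the fit recovered a median of 67% of changes of 0.3 and 93% of changes of 0.6, with 4 to 8 false calls. These sets held independent normal values, so the rates need not hold for low entries or for paralogs that share reads. Alternatives were pseudocounts of 0.1 and 1, other filters, median-ratio and quantile scaling, status OK alone, a replicate block, no trend, each library left out and, added after seeing the data, at least 10 implied fragments in each library. Loci are mm9 as deposited, counted from 1 after adding 1 to the start. Sequences come from GENCODE M21 and RefSeq on GRCm38, searched with Python 3.11.15, pandas 2.3.3 and numpy 2.4.6; plots used matplotlib 3.10.9.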

Additional observations from a re-analysis of the deposited data

Results flagged for a closer look

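Single libraries stood far from the other 3 of their group in 6 of 118 sets of 4 values, judged by the gap to the nearest library over the range against Dixon's limit for 4 values; chance gives about 1 in 20. Control replicate 3 was the high library for Hist3h2a (12.74 FPKM, others 11.61 to 11.7), for H3f3b (359.4, others 321.7 to 322.7) and for the summed FPKM of the variants (986, others 867 to 883.6). Fto siRNA replicate 4 was high for Hist1h2bf (2.49, others 2.137 to 2.192). Fto siRNA replicate 1 was high for both LOWDATA entries of Hist2h2aa2 (9.663, others 6.221 to 6.641, and 9.19, others 6.467 to 6.841), which share reads.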

How the results depend on the processing

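The median log2 fold change of the cluster entries was 0.24 to 0.36 with 1 library left out and 0.25 to 0.33 in the other settings, and that of the variants stayed below 0. The count of cluster entries that rose, 12 of 37 as tested, was 6 of 14 with a mean of at least 5 FPKM, where fewer entries are tested, and 7 to 14 with 1 library left out. With a replicate block the count was 12, and for variants that fell 2 against 3. Titles number both groups, but same-numbered libraries deviated together with correlations of 0.0736, -0.0402, -0.190 and -0.0895, so the numbers were not read as pairs. With 1 library left out, 10 of the 16 calls of members were kept every time. H2afv, Hist1h4k, Hist1h4h, Hist1h2bh, Hist1h4a and Hist2h3c2 lost theirs, also with no filter, where more entries are tested. Scaling moved the share of rises among all calls from 36.2% to 47.6% (median-ratio) and 47.4% (quantile).

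Signs changed near 0, and the cause was not tested. With 1 library left out, the log2 fold change ranged from -0.01618 to 0.04537 for H3f3b, -0.2001 to 0.04937 for Hist1h2bm, -0.06274 to 0.0505 for Hist1h2bp, -0.181 to 0.08971 for Hist2h2ac and -0.1528 to 0.05574 for Hist2h4. It ranged from -0.04135 to 0.01099 for H1f0, -0.1669 to 1.134 for Rmrp, -0.2449 to 0.7863 for Rpph1, -0.04517 to 0.01959 for Pparg and -0.1914 to 0.01172 for Des. With median-ratio scaling Hist1h2bp was at 0.013, H1f0 at 0.002544 and Pparg at 0.005433, and with quantile normalization Hist1h2bp was at 0.04684 and Hist2h2ac at 0.03456. Low entries rest on few implied fragments, which limits their precision.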
